A study of Mus musculus with 60 samples.

Results

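The parotid and the submandibular gland of the same mice were compared by bulk RNA sequencing. The comparison used 24 of the 60 libraries of the series, 12 parotid and 12 submandibular, chosen by the gland in their label. Each of 12 mice gave 1 library per gland, and the glands were paired by the animal number and letter in the library name. The mice were CD1, an outbred stock, or C57, an inbred strain as the label gives it, with 3 males and 3 females of each, so each of the 8 groups of gland, strain and sex held 3 libraries. Every animal was labelled only by strain and sex. No genotype, treatment or age is given in the sources used here. The remaining 36 libraries were sublingual gland, pancreas and liver of the same mice. Single mice are called by their strain and sex with their replicate number (CD1 female 2).

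Salivary glands make a primary fluid in acini and change it in ducts. Acinar cells take up chloride across their basal side, release it into the lumen through a channel, and water follows, while duct cells take back sodium and chloride and add potassium and bicarbonate. The parotid gland of the mouse is serous, and nerve signals through muscarinic and adrenergic receptors drive both fluid and protein release. The submandibular gland of the mouse also holds granular convoluted tubules, androgen-dependent ducts that store growth factors and kallikreins and are larger in males. The genes described below are transporters, receptors, transcription factors and members of signalling and metabolic pathways, not the abundant saliva proteins.

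Libraries held 39177980 to 66586067 counts in parotid and 29871176 to 51229615 counts in submandibular gland. Levels are CPM, counts scaled to a common library size with TMM factors, given as the lowest, median and highest of the 12 libraries of a gland. Summed markers of granular convoluted tubule cells reached 72659 to 214202 CPM in submandibular males and 868 to 5597 CPM in submandibular females, against 276 to 1161 CPM in parotid. Several parotid libraries carried markers of other tissues, and a library was said to stand apart when the summed level exceeded 2 times the highest submandibular library. For B and T lymphocytes this was so in 8 of 12 parotid libraries, at 122 to 2254 CPM, while the other 4 lay at or below 37.6 CPM and the submandibular libraries between 8.14 and 43.4 CPM. The 4 were CD1 female 1 and C57 females 1, 2 and 3, so all of them were females. Of the 18 lymphocyte markers, 18 were called higher in parotid. Adipocyte markers stood apart in 4 parotid libraries (CD1 female 2, C57 males 1 and 3 and C57 female 2), which reached 6288 CPM against 16.3 to 219 CPM in submandibular gland, and 10 of 12 markers were called. Skeletal muscle markers stood apart in 6 (CD1 males 1 and 2, CD1 female 3 and C57 females 1, 2 and 3), which reached 3201 CPM against 5.63 to 141 CPM, and 8 of 13 markers were called. Lacrimal gland markers stood apart in C57 male 2 (50931 CPM) and C57 female 1 (23997 CPM), against at most 325 CPM in the other parotid libraries and 62.7 to 1074 CPM in submandibular gland. Markers at a median under 0.1 CPM in submandibular gland were Mylpf of the muscle list and Obp1b and Esp16 of the lacrimal list, and no lymphocyte or adipocyte marker was that low. Markers of other blood and vessel cells were also called higher in parotid, beside 14.1% of all genes tested. These were 8 of 12 plasma cell, 7 of 8 mast cell, 5 of 11 endothelial, 5 of 13 macrophage and dendritic cell and 4 of 6 erythroid markers. Toward submandibular gland, 1 erythroid marker was called. Endothelial markers had median sums of 233 and 119 CPM. Acinar markers summed to 418 to 2702 CPM in parotid and 1240 to 3690 CPM in submandibular gland, and duct markers to 478 to 885 and 573 to 1505 CPM. Apart from Pparg, an adipocyte marker that is also a nuclear receptor, no gene of the lymphocyte, adipocyte, muscle or lacrimal lists is named below. Counts over the other lists were made without removing such genes.

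**Figure D1:**
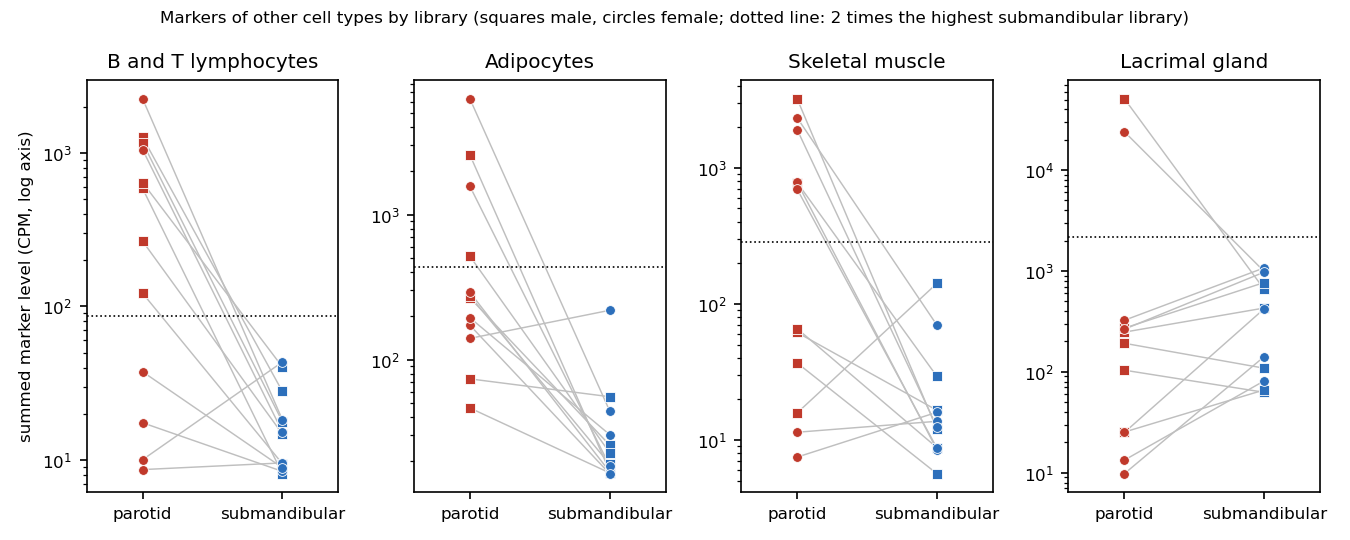
Summed CPM of 4 marker lists in each library on log axes, with grey lines joining the glands of 1 animal, squares for males, circles for females and a dotted line at 2 times the highest submandibular library. Lymphocyte markers reach 2254 CPM and adipocyte markers 6288 CPM in parotid, with submandibular libraries at or below 43.4 and 219 CPM.

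Of 19956 genes tested, 2804 were higher in parotid (14.1%) and 1391 were higher in submandibular gland (6.97%). A call needed an adjusted p under 0.05 from edgeR's quasi-likelihood test and at least a 2-fold difference, and each log2 fold change below is parotid minus submandibular, so that negative values are higher in submandibular gland. The same direction in all 12 animals was seen for 822 of the genes called higher in parotid (4.12% of genes tested) and 711 of those called higher in submandibular gland (3.56%). The median log2 fold change over all genes tested was 0.06. In the 4 animals with low lymphocyte markers, 717 and 492 of 16496 genes were called, of which 563 and 424 were shared with the calls in all animals. List counts from that fit are to be read beside these 717 and 492 of 16496. The 4 animals were all females, and C57 females 1, 2 and 3 among them had muscle markers. With the summed lymphocyte, adipocyte, muscle and lacrimal markers as covariates, 477 genes were called higher in parotid (2.39%) and 218 higher in submandibular gland (1.09%), 197 and 141 of them shared. That fit had 5 residual degrees of freedom, and the marker levels move with the gland in it. These are called the 4-animal fit and the covariate fit below. Neither fit adjusted for endothelial, mast cell, plasma cell, macrophage or erythroid markers. For most genes described with their levels it is stated whether the call held in both or which fit ended it, while genes given only by a fold change within a count were in most cases not followed there. In bulk tissue, fewer cells of a type and less RNA per cell cannot be told apart. Among the lists, 92 of 601 transporters were higher in parotid and 87 in submandibular gland, 143 and 38 of 426 receptors, 87 and 29 of 350 transcription factors, and 170 and 110 of 1087 pathway genes. Each list count in the 12 animals, here and below, is to be read beside 14.1% and 6.97% of all genes tested.

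Slc12a2, Ano1 and Aqp5, the main carrier and channels of acinar fluid secretion, were not called. Of 20 genes measured, 0 were called higher in parotid and 3 (15%) in submandibular gland, beside 14.1% and 6.97% of all genes tested, with a median log2 fold change of -0.28. Slc12a2, the basal cotransporter that loads chloride, lay at 102, 460 and 688 CPM in parotid and 301, 841 and 1326 CPM in submandibular gland (lowest, median and highest). Its log2 fold change of -0.89 (SE 0.24, adjusted p = 0.0111) did not reach 2-fold, and it was higher in submandibular gland in 10 of 12 animals. Ano1, the apical chloride channel, had medians of 176 and 136 CPM and a log2 fold change of 0.14 (SE 0.22, adjusted p = 0.654). Aqp5, the apical water channel, had medians of 184 and 282 CPM and a log2 fold change of -0.62 (adjusted p = 0.0356), under the 2-fold limit, and it passed the p threshold in 7 of the 12 fits that left out 1 animal. Of the potassium channels that keep the cell's voltage, Kcnn4 had a log2 fold change of 0.21 (adjusted p = 0.418) and Kcnma1 of -0.83 (adjusted p = 0.0112). Among the 3 genes called was Atp1b1, a beta subunit of the sodium pump (-1.14, SE 0.24, adjusted p = 0.00249). It lost the call in the 4-animal fit (adjusted p = 0.177), where 0 genes of the list were called. Bhlha15, a transcription factor of secretory cells, had medians of 368 and 446 CPM and a log2 fold change of -0.44 (adjusted p = 0.172). In the covariate fit the signs of Slc12a2 (1.15), Aqp5 (1.08), Kcnma1 (0.98), Atp1b1 (0.83) and Bhlha15 (1.69) turned, none of them past the p threshold, while Ano1 was called higher in parotid there (1.99, adjusted p = 0.00919).

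Most genes of ductal ion transport were higher in submandibular gland. Of 34 measured, 23 were called higher there and 2 in parotid, and the median log2 fold change was -1.66. Some of them are known from the sodium-absorbing duct cell and others from the ionocyte. The ionocyte is a rare duct cell with a vacuolar proton pump and the transcription factors Foxi1 and Ascl3. The genes were not assigned to cell types here. The epithelial sodium channel subunit Scnn1b lay at 2.43, 19 and 28.2 CPM in parotid and at 32.1, 109 and 193 CPM in submandibular gland, with no overlap. Its log2 fold change was -2.76 (SE 0.29, adjusted p = 1.42e-05). The submandibular median of Scnn1b lay between the sexes, with every male library at 121 CPM or more and every female one at 96.2 CPM or less. Scnn1g (-2.27, adjusted p = 0.000262) and Scnn1a (-1.53, adjusted p = 0.00333) were higher in submandibular gland in 11 of 12 animals, and both lost the call in the 4-animal fit (adjusted p = 0.169 and 0.185). Slc9a3, an apical sodium-proton exchanger, lay at 0.722, 3.62 and 5.66 CPM in parotid and 16.5, 22.9 and 40.7 CPM in submandibular gland (-2.83, SE 0.25, adjusted p = 3.03e-06), again with no overlap.

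Cftr, the cyclic AMP-gated chloride channel, lay at 0.691, 3.68 and 8.46 CPM in parotid and 7.28, 24 and 82.1 CPM in submandibular gland (-2.82, SE 0.29, adjusted p = 1.17e-05), and only the ends of the ranges met. In submandibular gland, males lay at 24.7 CPM or more and females at 23.3 CPM or less. Bsnd, an accessory subunit of basal chloride channels, named after its values were seen, had medians of 7.54 and 27.0 CPM (-1.94, SE 0.30, adjusted p = 0.000273), with an adjusted p of 0.058 in the 4-animal fit. Foxi1 lay at 0.261, 4.96 and 11 CPM in parotid and at 11.3, 23 and 63.4 CPM in submandibular gland, so the ranges did not overlap. Its log2 fold change was -2.56 (SE 0.29, adjusted p = 2.48e-05), beside -2.49 for its relative Foxi2 and -2.45 for Ascl3. Of the proton pump, the subunit Atp6v0d2 had medians of 12.0 and 63 CPM (-2.61, SE 0.23, adjusted p = 3.83e-06) and Atp6v1b1, named after its values were seen, 5.71 and 19.3 CPM (-1.84, SE 0.26, adjusted p = 0.000161). The listed exons of Foxi1 and Slc9a3 are at chr11:34154341-34156072 and chr13:74234374-74234653 (GRCm39).

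The 2 ductal genes higher in parotid were Hsd11b2, which inactivates glucocorticoids, and Slc4a8, a sodium-driven bicarbonate transporter. Hsd11b2, named after its values were seen, lay at 0.491, 2.42 and 6.16 CPM in parotid and at 0, 0.0443 and 0.389 CPM in submandibular gland (4.84, SE 0.67, adjusted p = 0.000127). Slc4a8 had medians of 4.08 and 0.743 CPM (2.31, SE 0.32, adjusted p = 0.000122) and lost the call in the 4-animal fit (adjusted p = 0.145). In the 4-animal fit 12 of the 23 ductal genes were called higher in submandibular gland, all shared, among 33 tested, and the median difference over the list in those animals was -0.90. In the covariate fit 0 were called higher in submandibular gland and 1 in parotid (Hsd11b2, adjusted p = 0.0083). There Foxi1 had a log2 fold change of -0.02, Foxi2 of -0.29, Ascl3 of -1.37, Atp6v0d2 of -0.57, Scnn1b of -0.50, Cftr of -0.46 and Slc9a3 of -1.0, while Scnn1a (1.08), Scnn1g (0.04), Bsnd (0.58) and Atp6v1b1 (0.14) turned sign, and none of these passed the p threshold. The part of the other tissues' markers in these differences was not tested.

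The sequence before the start site of 4 of these genes is shown, because Foxi1, Esrrg and Tfcp2l1, factors whose binding letters are known, were higher in submandibular gland like the ductal list. The 250 bases before each start were read from RefSeq (GRCm38.p6, not the build of the counts), 5' to 3' on the gene's strand, and matched by symbol for 16 of the 23 genes, with 25 start sites. On both strands, letters TGTTTNC as bound by forkhead factors were in 8 of the 25 (32%), in Atp6v1b1, Foxi1, Kcnj16, Scnn1g, Sgk1 and Slc9a3. They were in 14.8% of 18367 such windows of the genes tested, in 33.3% of 30 windows of the whole ductal list, which add Slc4a8, higher in parotid, and Nr3c2, and in 22% of 41 windows of the glycan genes higher in parotid. Letters TCAAGGTCA, as bound by estrogen-related receptors, were in 2 windows (8%), both of Sgk1, against 0.256%. The TFCP2L1 motif (a pair of CCAG words 6 bases apart) was in 1 window (4%), of Ascl3, against 3.15%. A match describes the letters only, and several start sites belong to 1 gene. Capitals mark the match, which in Foxi1 is on the opposite strand. The windows are chr11:34208090-34208339 on the minus strand, chr6:83742767-83743016 on the plus strand, chr13:74121163-74121412 on the plus strand and, for the TFCP2L1 letters, chr7:109731733-109731982 on the minus strand.
Foxi1: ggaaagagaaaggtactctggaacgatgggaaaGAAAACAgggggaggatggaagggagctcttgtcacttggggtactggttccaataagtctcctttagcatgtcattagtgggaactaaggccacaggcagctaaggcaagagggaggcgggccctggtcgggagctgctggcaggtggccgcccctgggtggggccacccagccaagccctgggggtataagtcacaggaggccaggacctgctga
Atp6v1b1: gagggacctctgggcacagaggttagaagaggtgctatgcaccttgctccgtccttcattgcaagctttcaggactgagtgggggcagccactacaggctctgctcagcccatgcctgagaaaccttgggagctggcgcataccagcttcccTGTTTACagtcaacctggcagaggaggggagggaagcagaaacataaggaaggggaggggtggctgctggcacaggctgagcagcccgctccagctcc
Slc9a3: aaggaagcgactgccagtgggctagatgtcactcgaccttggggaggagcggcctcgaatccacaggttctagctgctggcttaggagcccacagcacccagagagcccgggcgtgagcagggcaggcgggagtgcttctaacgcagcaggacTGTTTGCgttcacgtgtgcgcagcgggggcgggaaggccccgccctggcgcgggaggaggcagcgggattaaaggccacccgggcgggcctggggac
Ascl3: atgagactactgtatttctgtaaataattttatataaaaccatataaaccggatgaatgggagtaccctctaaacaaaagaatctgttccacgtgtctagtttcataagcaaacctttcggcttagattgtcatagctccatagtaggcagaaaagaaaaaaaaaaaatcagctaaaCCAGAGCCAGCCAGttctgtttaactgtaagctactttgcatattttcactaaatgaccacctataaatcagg

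**Figure D2:**
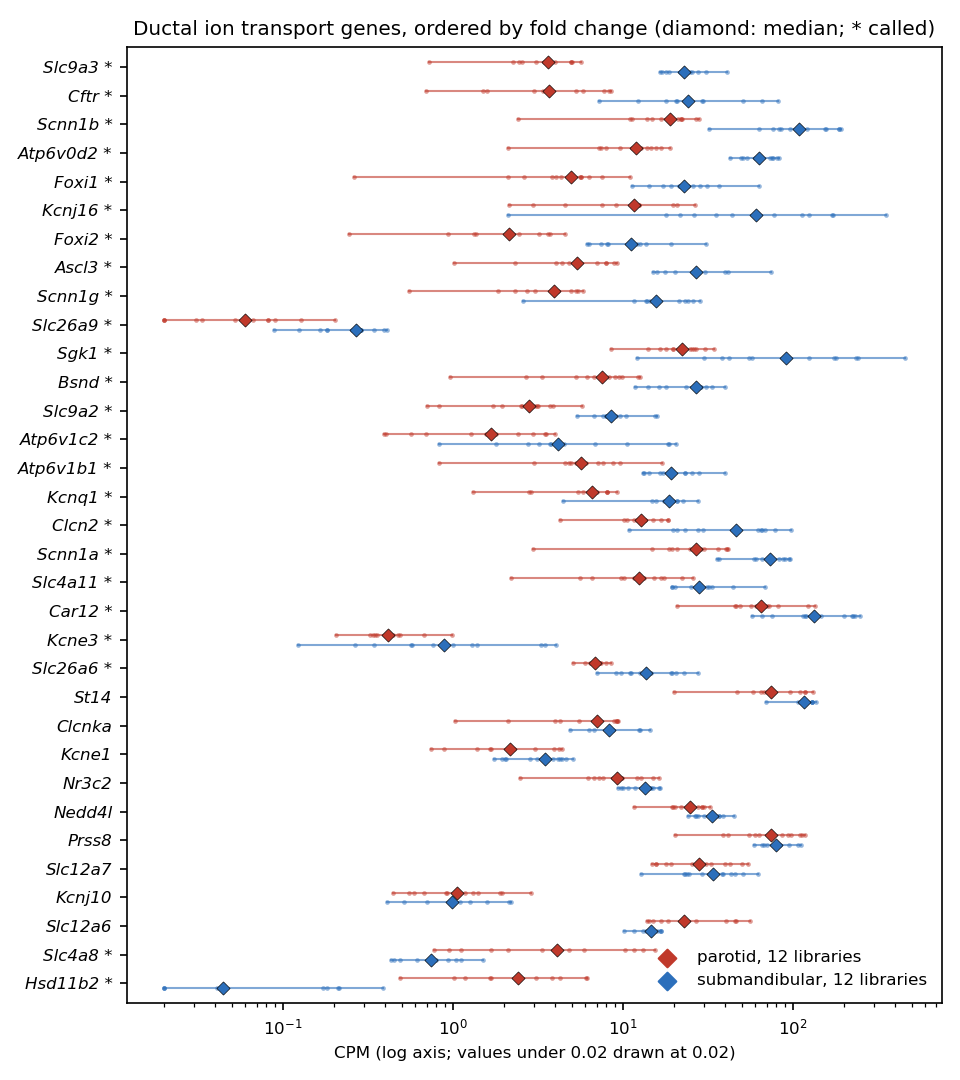
CPM of 33 of the 34 ductal ion transport genes on a log axis, ordered by fold change, with small points for the 12 libraries of each gland, diamonds for medians and an asterisk for a call. Parotid medians lie to the right for the called genes Hsd11b2 and Slc4a8, and submandibular medians for the other called genes.

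Other transporters went both ways, with 33 of 326 solute carriers (10.1%) higher in parotid and 45 (13.8%) in submandibular gland. Best3, a bestrophin chloride channel, was the transporter with the largest fold change toward submandibular gland by the naming rule. It lay at 0.314, 0.708 and 1.46 CPM in parotid and at 2.61, 24 and 36.9 CPM in submandibular gland, with no overlap (-4.63, SE 0.31, adjusted p = 2.35e-07). The submandibular median of Best3 lay between the sexes, with every male library at 28.9 CPM or more and every female one at 19.1 CPM or less. Slco1a5, an organic anion uptake carrier, had medians of 2.32 and 21.8 CPM (-2.86, SE 0.30, adjusted p = 1.42e-05). In parotid, Slc25a21, a mitochondrial oxodicarboxylate carrier, lay at 6.6, 17.1 and 33.4 CPM against 0.839, 1.81 and 2.83 CPM (3.43, SE 0.22, adjusted p = 2.18e-07). Its RefSeq span overlaps that of Pax9, so reads may be shared between them. Kcns1, a modifier subunit of voltage-gated potassium channels, lay at 5.70, 42.3 and 124 CPM against 3.07, 6.21 and 8.99 CPM (2.74, SE 0.26, adjusted p = 6.73e-06), and the lowest parotid library lay inside the submandibular range. Slc41a2, a magnesium carrier, had medians of 37.1 and 9.66 CPM (2.10, SE 0.15, adjusted p = 4.12e-07). Best3, Slc25a21, Kcns1 and Slc41a2 were called in both further fits, and Slco1a5 was not in the covariate fit (-1.38, adjusted p = 0.289).

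The amino acid carrier Slc36a2 lay at 0.681, 3.93 and 124 CPM in parotid against 0.0859, 0.270 and 2.55 CPM (4.14, SE 0.68, adjusted p = 0.000445). Its 2 highest parotid libraries, C57 female 2 (124 CPM) and C57 male 3 (67.3 CPM), were also the highest in summed adipocyte markers, and in the covariate fit its log2 fold change was 0.77 (adjusted p = 0.699). Slc7a10, another amino acid carrier, reached 48.6 CPM in C57 female 2 alone, with a parotid median of 1.27 CPM against 0.226 CPM (2.96, adjusted p = 0.00129; 1.82 with an adjusted p of 0.45 in the covariate fit). Its span overlaps that of Lrp3. Slc28a2, a nucleoside carrier (3.02), Abcd2, a peroxisomal fatty acid transporter (2.66), and Kcnab2, a potassium channel subunit (2.47), lost the call in both further fits. In the 4-animal fit their log2 fold changes were 1.67, 3.33 and 0.95 (adjusted p = 0.0888, 0.0621 and 0.0923), so that of Abcd2 was no smaller there, and in the covariate fit 1.47, 0.56 and 0.04. Of 10 aquaporins, 3 were called, all higher in parotid, and named after their values were seen. Aqp1, a water channel of vessels and other cells, lay at 12.8, 31.5 and 67.0 CPM against 4.56, 8.03 and 11 CPM (2.09, SE 0.21, adjusted p = 9.75e-06). Aqp3 (2.74) and Aqp7 (2.28) had parotid medians under 1 CPM, and Aqp7 turned to -1.65 in the covariate fit, where Aqp1 (1.16, adjusted p = 0.205) and Aqp3 (2.51, adjusted p = 0.612) lost the call. ABC transporters counted 6 of 43 higher in parotid and 0 in submandibular gland. V-ATPase subunits counted 2 (Atp6v0a4 1.99 and Atp6v1g1 1.02) and 6 of 24, the latter led by Atp6v1g3 (-5.45). Of 14 carbonic anhydrases, Car3 was higher in parotid (3.02, and -0.03 in the covariate fit), with its highest level in C57 female 2 (3852 CPM), the library highest in adipocyte markers, and Car13 (-2.48), Car8 (-2.10), Car6 (-1.45) and Car12 (-1.11) were higher in submandibular gland.

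Among receptors for nerve signals, both adrenergic receptors described here were higher in submandibular gland, and neither main acinar muscarinic receptor was called. Of 40 autonomic and neuropeptide receptors, 10 (25%) were called higher in parotid and 8 (20%) in submandibular gland, 5 of each in all 12 animals. Over all genes tested these shares were 14.1% and 6.97%. The receptors named here that were called in the 12 animals all go toward submandibular gland, and none of the 10 is named. Adra1a, the alpha-1A adrenergic receptor, lay at 3.75, 10.9 and 16.9 CPM in parotid and 14.9, 78.4 and 166 CPM in submandibular gland (-2.85, SE 0.24, adjusted p = 2e-06), higher in submandibular gland in all 12 animals, with the ranges meeting at their ends. This value was -1.42 in the covariate fit (adjusted p = 0.0738). Adrb1, the beta-1 receptor that raises cyclic AMP, lay at 5.86, 27.1 and 46.0 CPM against 25.7, 58.4 and 88.9 CPM (-1.09, SE 0.24, adjusted p = 0.00336). It was lower in parotid in all 12 animals, and in the covariate fit its log2 fold change was 0.94 (adjusted p = 0.393). Chrm3, the main muscarinic receptor of acinar cells, had medians of 24.4 and 29.9 CPM and a log2 fold change of -0.25 (SE 0.22, adjusted p = 0.414), and was higher in each gland in 6 animals. In the covariate fit it was called higher in parotid (1.83, adjusted p = 0.0171). Chrm1, the other acinar muscarinic receptor, had medians of 2.96 and 4.57 CPM (-0.81, SE 0.21, adjusted p = 0.00816), under 2-fold. Named after their values were seen, Chrm4, an inhibitory muscarinic receptor, had medians of 0.309 and 1.66 CPM (-2.29, adjusted p = 1.82e-05) and Tacr3, a tachykinin receptor, 0.119 and 0.838 CPM (-2.72, adjusted p = 0.000664), both called in the 4-animal fit as well, and Chrm4 not in the covariate fit (-2.56, adjusted p = 0.178).

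Receptors of neurotrophic factors split between the glands. These ligands and receptors guide and keep the nerves of their target tissues. Ntrk2, the receptor of brain-derived neurotrophic factor, lay at 36.6, 64.9 and 128 CPM in parotid and 2.69, 5.31 and 7.57 CPM in submandibular gland. Every parotid library exceeded every submandibular one, and the log2 fold change was 3.73 (SE 0.29, adjusted p = 1.05e-06). Ret, the signalling receptor of the glial cell line-derived factor family, went the other way, at 1.33, 2.67 and 4.12 CPM in parotid and 45.8, 93.4 and 119 CPM in submandibular gland (-4.99, SE 0.18, adjusted p = 4.18e-09). Its co-receptor Gfra2, which binds neurturin, had medians of 5.47 and 1.43 CPM (2.02, SE 0.29, adjusted p = 0.00017), so receptor and co-receptor differed in opposite directions. Ntrk2 and Ret were called in both further fits, while Gfra2 had an adjusted p of 0.65 in the covariate fit. Gfra4, another co-receptor of that family, was called higher in parotid (2.23; named after its values were seen), at a parotid median of 0.499 CPM, and had a log2 fold change of -0.0036 in the covariate fit. Of 24 genes of the list, 4 were higher in parotid, among them Ntrk2, Gfra2 and Gfra4, and 3 in submandibular gland, among them Ret and Ngfr (-3.73), which lost its call in both further fits (adjusted p = 0.0699 and 0.0721). The listed exons of Ntrk2 and Ret are at chr13:58954363-58954666 and chr6:118128709-118132396 (GRCm39).

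**Figure D3:**
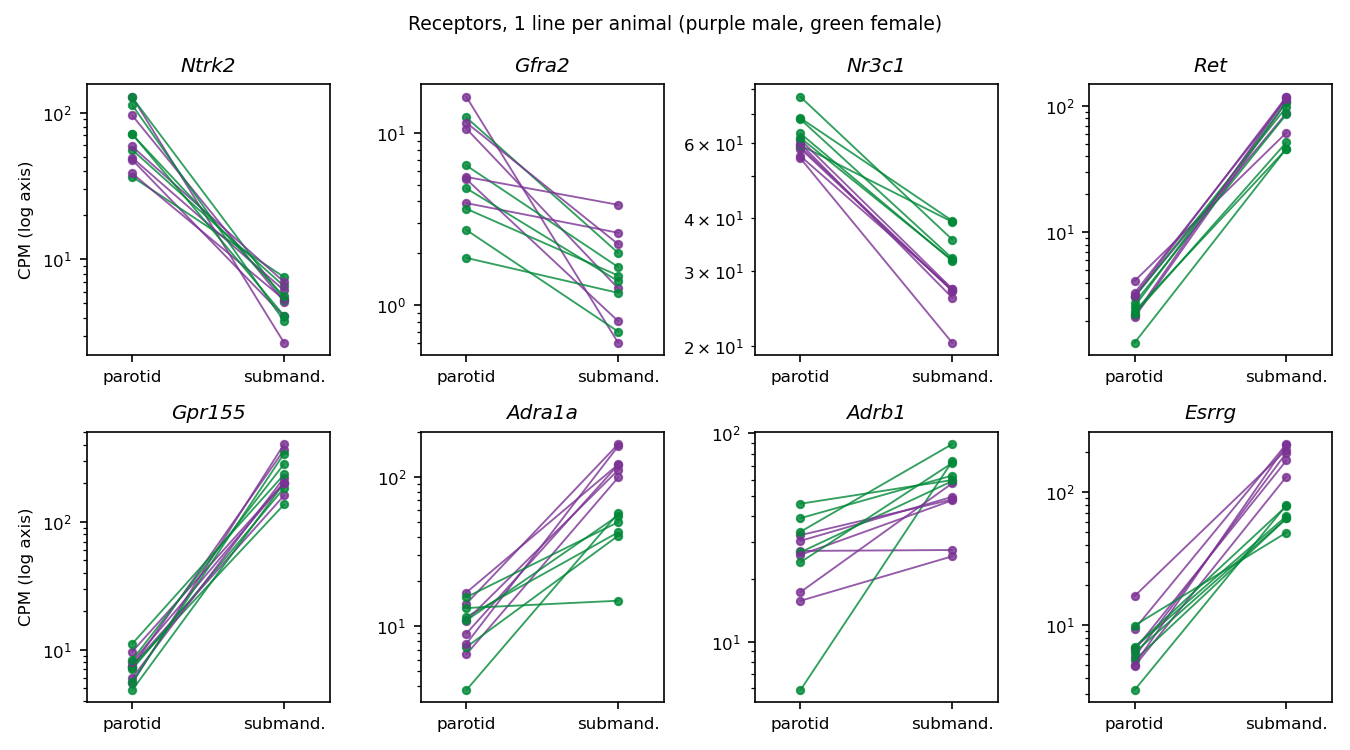
CPM on log axes of 8 receptors, with 1 line per animal from parotid to submandibular gland, purple for males and green for females. All lines of Ntrk2 and Nr3c1 fall toward submandibular gland and all lines of Ret, Gpr155, Adra1a, Adrb1 and Esrrg rise.

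Among other receptors, Gpr155, a lysosomal cholesterol-sensing protein with a receptor-like domain, lay at 4.83, 7.37 and 11.1 CPM in parotid and 137, 212 and 405 CPM in submandibular gland (-5.01, SE 0.22, adjusted p = 1.01e-08), with no overlap. Gprc6a, an amino acid-sensing receptor, had medians of 0.989 and 5.40 CPM (-2.77, adjusted p = 4.23e-05). Met, the receptor of hepatocyte growth factor, named after its values were seen, lay at 8.69, 14.3 and 21.8 CPM against 30.1, 41.7 and 57.8 CPM (-1.62, SE 0.14, adjusted p = 2.77e-06). Erbb4, a neuregulin receptor, was higher in submandibular gland in 11 of 12 animals (-3.71, SE 0.39, adjusted p = 1.54e-05). Musk, a kinase best known from the neuromuscular junction, had medians of 0.870 and 8.50 CPM (-2.99, SE 0.28, adjusted p = 5.05e-06) and an adjusted p of 0.238 in the 4-animal fit. Toward parotid, Hcar1, the lactate receptor of fat cells, had medians of 5.15 and 0.599 CPM (3.24, SE 0.39, adjusted p = 4.77e-05) and lost the call in the 4-animal fit, at a fold change no smaller (3.37, adjusted p = 0.0564), and in the covariate fit (2.25, adjusted p = 0.207). Calls that the covariate fit ended were also those of Gprc6a (-0.83, adjusted p = 0.731), Met (-0.95, adjusted p = 0.262), Erbb4 (-4.27, adjusted p = 0.115) and Musk (-1.40, adjusted p = 0.385), while Gpr155 held in both.

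Most cytokine and G protein-coupled receptors called were higher in parotid, together with the lymphocyte markers. Cytokine receptors counted 40 higher in parotid and 7 in submandibular gland of 86, with a median log2 fold change of 1.09, and G protein-coupled receptors 90 and 18 of 233, with a median of 0.71. In the 4-animal fit these counts were 5 and 2 of 73 and 17 and 8 of 166, beside 717 and 492 of all genes tested there. The medians in those animals were 0.18 and 0.19. Il7r, the interleukin-7 receptor, lay at 0.480, 11 and 37.9 CPM in parotid and 0.349, 0.802 and 1.16 CPM in submandibular gland (3.15, SE 0.52, adjusted p = 0.000461). In the 4-animal fit its log2 fold change was 0.48 (adjusted p = 0.458). P2ry10 (3.79), Il27ra (3.46), Csf2rb (2.87) and S1pr1 (2.52), receptors known from leukocytes, likewise lost the call there, with adjusted p of 0.119, 0.200, 0.0745 and 0.0576. Il6ra, the interleukin-6 receptor, was called in the 4-animal fit and not in the covariate fit (1.06, adjusted p = 0.421), at 4.24, 9.93 and 26.4 CPM against 1.01, 1.93 and 4.61 CPM (2.50, SE 0.24, adjusted p = 6.21e-06; 2.11 in the 4-animal fit).

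Of 42 nuclear receptors, 4 were higher in parotid (Pparg 2.62, Esr1 1.76, Nr1h3 1.45 and Nr3c1 1.05) and 5 in submandibular gland, among them Esrrg (-4.09), Nr1i2 (-2.22), Nr0b2 (-1.77) and Rarb (-1.18). Pparg is on the adipocyte marker list, so its value is not read as a gland difference. Esrrg, an orphan receptor of oxidative metabolism, lay at 3.22, 6.33 and 16.5 CPM in parotid and 49.8, 106 and 231 CPM in submandibular gland (-4.09, SE 0.19, adjusted p = 1.41e-08), with no overlap. Its submandibular median lay between the sexes, with every male library at 131 CPM or more and every female one at 80.2 CPM or less. Nr3c1, the glucocorticoid receptor, had a narrow spread, at 55.1, 60.3 and 76.9 CPM in parotid and 20.3, 29.4 and 39.3 CPM in submandibular gland (1.05, SE 0.08, adjusted p = 5.39e-07). Esrrg and Nr3c1 were called in both further fits. Esr1, the estrogen receptor alpha, named after its values were seen, had medians of 2.28 and 0.688 CPM (1.76, adjusted p = 0.00337), a log2 fold change of 2.11 (adjusted p = 0.134) in the 4-animal fit and of -0.08 in the covariate fit. Nr1i2 lost its call in both (adjusted p = 0.340 and 0.441).

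The transcription factor with the largest fold change by the naming rule was Tlx1. A homeobox factor needed for spleen formation, it lay at 0.244, 0.557 and 2.21 CPM in parotid and 32.7, 41.3 and 57.2 CPM in submandibular gland (-5.99, SE 0.24, adjusted p = 7.38e-09), with no overlap. Tbx3, a T-box repressor, lay at 0.918, 1.88 and 15.8 CPM against 10.4, 21.3 and 31.1 CPM (-3.24, SE 0.30, adjusted p = 5.08e-06), and only C57 female 2 (15.8 CPM) lay inside the submandibular range. Foxa1, a pioneer forkhead factor, lay at 0.752, 2.57 and 48.6 CPM against 22.5, 45.1 and 67.6 CPM (-3.55, SE 0.55, adjusted p = 0.000298). It was below 4 CPM in 9 parotid libraries and at 48.6 CPM in C57 female 2, 23.3 CPM in C57 male 2 and 17.4 CPM in C57 female 1, and its adjusted p in the 4-animal fit was 0.105. Tfcp2l1, a grainyhead-family factor of duct cells, lay at 16.3, 128 and 204 CPM against 322, 635 and 1086 CPM (-2.60, SE 0.35, adjusted p = 0.000111), and its log2 fold change in the covariate fit was 0.33 (adjusted p = 0.805). Runx2, best known from bone, had medians of 13.3 and 50.2 CPM (-1.97, adjusted p = 5.61e-05). Barx1, a homeobox factor of the developing jaw and stomach, named after its values were seen, had medians of 0.262 and 1.86 CPM (-2.74, adjusted p = 0.000126). Tlx1 and Tbx3 were called in both further fits. With covariates Foxa1 had -2.70 (adjusted p = 0.321), Runx2 -0.40 (adjusted p = 0.686) and Barx1 0.02 (adjusted p = 1), so these calls ended. The listed exons of Tlx1 and Esrrg are at chr19:45138531-45139931 and chr1:187340707-187341096 (GRCm39).

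Toward parotid, Cebpa, a factor of fat, liver and myeloid cells, lay at 56.7, 71.2 and 214 CPM against 12.2, 24.5 and 28.5 CPM (1.8, SE 0.16, adjusted p = 3.62e-06), with no overlap and a call in both further fits. Its highest parotid library was C57 female 2, also the highest in adipocyte markers. Pax9, a paired-box factor of pharyngeal and oral tissue, named after its values were seen, lay at 45.4, 264 and 416 CPM against 26.8, 39.7 and 53.6 CPM (2.60, SE 0.29, adjusted p = 2.14e-05), higher in 11 of 12 animals and called in both further fits. Meox2, a mesenchymal homeobox factor, had medians of 6.22 and 0.834 CPM (2.76, SE 0.27, adjusted p = 7.86e-06), and Ebf1, a factor of B cells and fat cells, 18.4 and 4.88 CPM (2.01, SE 0.22, adjusted p = 1.74e-05). Both were called in the 4-animal fit and not in the covariate fit (adjusted p = 0.396 and 0.667). Klf2 (2.48), Ets1 (2.33), Fli1 (2.12), Lyl1 (1.8) and Zeb2 (1.37), known from blood and vessel cells, lost the call in the 4-animal fit, with adjusted p of 0.0586, 0.105, 0.106, 0.0765 and 0.0656. Their log2 fold changes there were 0.99, 0.45, 1.02, 0.96 and 1.46, so all but that of Zeb2 were smaller than in the 12 animals. Lyl1 also shares span with Nfix. Homeobox factors counted 36 higher in parotid and 4 in submandibular gland (Tlx1, Barx1, Alx4 -1.53 and Hopx -1.53) of 99, and 6 and 3 of 66 in the 4-animal fit. Hoxd8, named after its values were seen, was one of the 6, with medians of 2.48 and 0.425 CPM (2.60, adjusted p = 8.19e-05; 1.10 with an adjusted p of 0.522 in the covariate fit). Fox factors counted 7 and 4 (Foxa1, Foxi1, Foxi2 and Foxq1 -1.65) of 31, ETS factors 7 and 4 (Etv4 -1.18, Etv6 -1.13, Ehf -1.07 and Spdef -1.12) of 24, and basic helix-loop-helix factors 18 and 4 (Ascl3, Bhlhe40 -1.05, Bhlhe41 -1.09 and Mesp1 -4.90) of 71.

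Genes that build and cap glycans held some of the largest differences toward parotid. Of 93 measured, 34 were higher in parotid and 12 in submandibular gland, with a median log2 fold change of 0.57, and in the 4-animal fit 16 and 10 of 76 were called, 15 and 8 of them shared. B4galnt3, which adds N-acetylgalactosamine to make LacdiNAc, lay at 15.7, 108 and 182 CPM in parotid and 1.10, 1.65 and 2.38 CPM in submandibular gland (5.92, SE 0.33, adjusted p = 4.54e-08). St3gal6, a sialyltransferase, lay at 31.6, 111 and 172 CPM against 1.3, 2.73 and 4.21 CPM (5.27, SE 0.25, adjusted p = 1.41e-08), and its span overlaps that of Dcbld2. In both genes every parotid library exceeded every submandibular one by several-fold. Named after their values were seen, Galnt6 (51.4 against 2.10 CPM, log2 fold change 4.53, adjusted p = 1.01e-08) and Galnt1 (151 against 35.3 CPM, 2.16, adjusted p = 2.78e-07), which start O-glycans, were also higher in parotid. Other sialyl- and branching enzymes went both ways. St6gal1, St6galnac6, Gcnt1 and Gcnt4, named after their values were seen, were called higher in parotid. Toward submandibular gland, St3gal4 had medians of 31.8 and 266 CPM (-2.28, adjusted p = 1.21e-05) and Gcnt2, which makes I-branches, 3.43 and 15.4 CPM (-2.04, adjusted p = 4.34e-06), both named after their values were seen. The submandibular median of St3gal4 lay between the sexes, as no male library there exceeded 171 CPM and every female one reached at least 361 CPM. St3gal4 was higher in submandibular gland in all 12 animals. Its gland difference was not called by sex (males minus females 1.75, SE 0.46, adjusted p = 0.0924). By the naming rule, the sulfotransferases Chst9 (-2.35, SE 0.18, adjusted p = 9.9e-07) and Chst13 (-3.90, SE 0.42, adjusted p = 1.8e-05) were higher in submandibular gland. Chst1, another sulfotransferase, named after its values were seen, was higher in parotid in all 12 animals (3.56, SE 0.64, adjusted p = 0.000812). Its parotid libraries ran from 1.82 to 312 CPM, and it lost the call in the 4-animal and covariate fits (adjusted p = 0.0982 and 0.53). B4galnt3, St3gal6, Galnt6 and Galnt1 were called in both further fits. St3gal4 (-1.27, adjusted p = 0.401), Gcnt2 (-1.84, adjusted p = 0.0995) and Chst9 (-1.07, adjusted p = 0.342) were not called in the covariate fit, and Chst13 was called there and not tested in the 4-animal fit. The listed exons of B4galnt3 and St3gal6 are at chr6:120177714-120180879 and chr16:58290105-58291090 (GRCm39).

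Claudins, which set what passes between cells, also split between the glands. Of 31 claudins and tight junction proteins, 8 were higher in parotid and 9 in submandibular gland, and in the 4-animal fit 4 and 3 of 27. Cldn22 lay at 59.5, 233 and 332 CPM in parotid and 1.15, 1.8 and 4.01 CPM in submandibular gland (6.65, SE 0.22, adjusted p = 2.14e-09). Its neighbour Cldn24 lay at 1.95, 7.32 and 10 CPM in parotid. The submandibular libraries held at most 3 counts of it each and 17 in all, against 3095 in parotid, a ratio of 172 after scaling to library size, with a 95% exact interval of 107 to 296. That interval covers counting error only and would be wider if read pairs were counted as 2. The listed exons are at chr8:48277501-48278511 for Cldn22 and chr8:48275178-48275840 for Cldn24 (GRCm39). Cldn2, a pore for cations, named after its values were seen, had medians of 4.37 and 0.672 CPM (2.53, SE 0.25, adjusted p = 9.08e-06), and these 3 genes were called in both further fits. Toward submandibular gland, Cldn8, a barrier claudin of tight ducts, lay at 3.72, 11.6 and 32.7 CPM against 51.8, 75.4 and 92.2 CPM (-2.51, SE 0.20, adjusted p = 1.47e-06). Cldn4 had medians of 16.0 and 84.0 CPM (-2.27, SE 0.22, adjusted p = 7.82e-06) and Cldn10, named after its values were seen, 56.9 and 150 CPM (-1.61, SE 0.17, adjusted p = 1.21e-05). These 3 were called in the 4-animal fit and not in the covariate fit.

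Among growth factor genes, the ligands Egf, Wnt4, Fgf9 and Bmp7 were higher in submandibular gland. In the EGF family, 3 of 17 were called, Egf, Erbb2 and Erbb4, all higher in submandibular gland (17.6%, beside 6.97% of all genes). Egf, a product of granular convoluted tubules, lay at 56.5, 189 and 311 CPM in parotid and 213, 10230 and 60327 CPM in submandibular gland (-4.87, SE 0.30, adjusted p = 1.24e-07). Erbb2 (-1.03, SE 0.26, adjusted p = 0.00783) lost its sign in the covariate fit (1.06, adjusted p = 0.279), and its span overlaps that of Mien1. Wnt4, a ligand, lay at 1.92, 8.29 and 13.1 CPM against 40.7, 70.8 and 178 CPM (-3.35, SE 0.23, adjusted p = 3.5e-07), with no overlap, and Nkd2, an inhibitor of Wnt signalling, had medians of 5.73 and 19.1 CPM (-1.77, adjusted p = 1.4e-05). Fzd9, a Wnt receptor, was higher in parotid, with medians of 5.57 and 3.05 CPM (1.19, SE 0.20, adjusted p = 0.000552). Of 54 Wnt genes, 10 were higher in parotid and 6 in submandibular gland. Fgf9, a ligand, had medians of 1.07 and 8.85 CPM (-3.08, SE 0.17, adjusted p = 3.81e-08), in a list with 4 higher in parotid (Fgf13 2.44, Fgfbp1 1.60, Fgf18 1.55 and Klb 1.54) and 4 in submandibular gland (with Kl -3.13, Fgf1 -1.41 and Etv4 -1.18) of 31. Chrdl1, a secreted BMP antagonist, lay at 1.22, 6.86 and 14.5 CPM against 0.0411, 0.420 and 0.699 CPM (3.95, SE 0.29, adjusted p = 6.57e-07), with no overlap, and Bmp7, a ligand, went the other way (-1.10, SE 0.15, adjusted p = 0.000112). TGF-beta and BMP genes counted 13 and 4 (Bmp7, Bmp8a -3.07, Tgfb2 -1.49 and Chrd -1.07) of 66 (19.7% and 6.06%, beside 14.1% and 6.97% of all genes tested). In the ectodysplasin pathway, which shapes ectodermal glands, the adaptor Edaradd had medians of 6.33 and 25.7 CPM (-2.09, adjusted p = 3.11e-06), with an adjusted p of 0.0516 in the 4-animal fit. Egf, Fgf9 and Fzd9 were called in both further fits. In the covariate fit Wnt4 had -1.77 (adjusted p = 0.0736), Nkd2 -0.70 (adjusted p = 0.548), Chrdl1 2.45 (adjusted p = 0.137), Bmp7 -0.56 (adjusted p = 0.651) and Edaradd -1.65 (adjusted p = 0.0849), so these calls ended.

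Retinoid genes went both ways. Crabp2, which delivers retinoic acid to its nuclear receptors, lay at 4.77, 26.4 and 39.1 CPM in parotid and 0.200, 0.511 and 1.16 CPM in submandibular gland (5.37, SE 0.31, adjusted p = 7.75e-08). Every parotid library exceeded every submandibular one, and it was called in both further fits. Crabp1, its relative, had medians of 0.977 and 3.94 CPM (-1.81, SE 0.21, adjusted p = 3.2e-05; named after its values were seen). The enzymes that make retinoic acid were higher in submandibular gland, with medians of 3.55 and 20.6 CPM for Aldh1a3 (-2.44, SE 0.23, adjusted p = 5.66e-06) and of 17.1 and 38.7 CPM for Aldh1a1 (-1.28, SE 0.16, adjusted p = 5.13e-05). So was the receptor Rarb, named after its values were seen (-1.18, adjusted p = 0.000372). Aldh1a1 and Rarb had adjusted p of 0.0802 and 0.0947 in the 4-animal fit. Of 26 retinoid genes, 2 were higher in parotid, with Lrat (1.69) as the other, and 5 in submandibular gland, with Aldh1a7 (-2.24) as the last. Lrat turned to -2.19 in the covariate fit, where Crabp1 (-2.10, adjusted p = 0.173), Aldh1a3 (-2.04, adjusted p = 0.225), Aldh1a1 (-1.18, adjusted p = 0.104) and Rarb (-1.33, adjusted p = 0.167) lost the call, and Aldh1a7 lost it in the 4-animal fit (adjusted p = 0.0714). The listed exon of Crabp2 is at chr3:87856000-87856217 (GRCm39).

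Exocytosis genes counted 8 higher in parotid and 13 in submandibular gland of 59. Sytl5, a Rab27-binding granule protein, lay at 0.292, 1.72 and 3.29 CPM in parotid and 6.43, 20.6 and 50.9 CPM in submandibular gland (-3.60, SE 0.30, adjusted p = 2.27e-06). Unc13b, a priming factor, lay at 9.79, 54.0 and 86.5 CPM against 94.8, 416 and 969 CPM (-2.97, SE 0.30, adjusted p = 1.08e-05). Both ranges were apart, and both genes were called in the 4-animal fit and not in the covariate fit. Unc13d, its relative of blood cells, was higher in parotid (2.03, adjusted p = 0.00107), with an adjusted p of 0.305 in the 4-animal fit. In cyclic AMP signalling, 23 and 10 of 92 were called. Of these Pde1b, a calmodulin-dependent phosphodiesterase, had medians of 5.54 and 0.912 CPM (2.70, SE 0.25, adjusted p = 5.7e-06), and its paralog Pde1c 3.25 and 15.8 CPM (-2.32, SE 0.16, adjusted p = 3.17e-07). The calcium-stimulated cyclase Adcy8 had medians of 14 and 45.2 CPM (-1.93, SE 0.24, adjusted p = 5.53e-05). These 3 calls ended in the covariate fit, at 1.32 (adjusted p = 0.387) for Pde1b, -1.95 (adjusted p = 0.0646) for Pde1c and -0.13 (adjusted p = 0.954) for Adcy8. Of 52 genes of folding in the endoplasmic reticulum, 0 were higher in parotid and 4 (7.69%) in submandibular gland (Agr2 -3.23, Hyou1 -1.16, Sel1l -1.14 and Creb3l4 -1.04). Over all genes tested the shares were 14.1% and 6.97%, so the share toward submandibular gland was near that of all genes. Agr2, Hyou1 and Sel1l lost the call in the 4-animal fit (adjusted p = 0.0968, 0.152 and 0.334), and all 4 in the covariate fit. Agr2, a disulfide isomerase of secretory cells, was at 213 CPM in C57 male 2 and 61.2 CPM in C57 female 1, the parotid libraries with lacrimal markers. The other 10 parotid libraries lay below every submandibular one, and the parotid mean of 23.6 CPM was above the submandibular mean of 18.3 CPM.

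In central metabolism, Me3 and Hk1 were higher in submandibular gland, and several genes higher in parotid were highest in libraries with muscle or adipocyte markers. Of 104 nuclear genes of the respiratory chain, 3 were called higher in parotid (2.88%; Cox6a2 3.64, Cox8b 2.67 and Cox4i2 1.99) and 0 in submandibular gland. Of 25 tricarboxylic acid cycle genes 1 (Me2, 1.06) and 1 (Me3) were called. Of 38 glycolytic genes 5 (Pgam2 2.04, Pfkfb3 1.99, Pck1 1.72, Eno3 1.46 and Pdk4 1.12) and 3 (Hk1, Pfkfb2 -1.12 and Pfkm -1.04) were called (13.2% and 7.89%), near the shares over all genes, and Eno3 shares span with Pfn1. Cox6a2 (16.9 CPM), Pgam2 (51.7 CPM) and Eno3 (181 CPM) were highest in CD1 male 1, the library highest in muscle markers. Cox8b (154 CPM) and Pdk4 (76.7 CPM) were highest in C57 male 3, and Pfkfb3 (95.3 CPM) and Pck1 (455 CPM) in C57 female 2, both with adipocyte markers. None of these 7 was called higher in parotid in the covariate fit (log2 fold changes -0.37, 0.95, 0.25, -1.85, -0.54, -0.56 and -1.98), and Pck1 was called the other way (adjusted p = 0.0320). In the 4-animal fit Cox6a2 (4.37, adjusted p = 0.0363), Pgam2 (3.58, 0.0281), Eno3 (1.45, 0.0456), Cox8b (2.43, 0.0328) and Pdk4 (1.49, 0.0411) were still called. Pfkfb3 and Pck1 were not (adjusted p = 0.253 and 0.127). Among those animals, C57 females 1, 2 and 3 had muscle markers. Me3, a mitochondrial malic enzyme, had medians of 5.39 and 27.1 CPM (-2.29, SE 0.17, adjusted p = 5.25e-07), and Hk1, a hexokinase, 48.8 and 109 CPM (-1.24, SE 0.13, adjusted p = 1.31e-05). Me3 held in both further fits, and Hk1 lost the call in the covariate fit at a log2 fold change of -1.35. The fatty acid synthesis genes Scd1 (1.66), Fasn (1.4) and Acaca (1.25), named after their values were seen, were the 3 of 31 cholesterol and fatty acid synthesis genes called, and all were highest in parotid libraries with adipocyte markers. Scd1 ran from 83.4 to 8366 CPM in parotid, and none of the 3 was called in either further fit. Of 164 genes of glutathione and xenobiotic metabolism, 13 were higher in parotid and 19 in submandibular gland. Cyp4b1 had medians of 9.56 and 1.20 CPM (3.06, SE 0.25, adjusted p = 1.68e-06) and Sult1c1, a sulfotransferase, 0.474 and 3.95 CPM (-3.62, SE 0.27, adjusted p = 6.57e-07), and in the covariate fit both lost the call (1.48 and -2.94, adjusted p = 0.360 and 0.108).

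Cell cycle genes counted 21 higher in parotid and 0 in submandibular gland of 38, with a median log2 fold change of 1.07. In the 4-animal fit 2 of 36 were called, and the median in those animals was 0.18. One of them was Rrm2, a subunit of ribonucleotide reductase, which lay at 5.63, 12.3 and 26.3 CPM in parotid and 1.72, 3.42 and 6.37 CPM in submandibular gland (1.84, SE 0.12, adjusted p = 1.51e-07; 1.89 in the 4-animal fit). Ccnd2, cyclin D2, was not (1.62, SE 0.30, adjusted p = 0.000947 in all animals, and 0.251 in the 4).

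**Figure D4:**
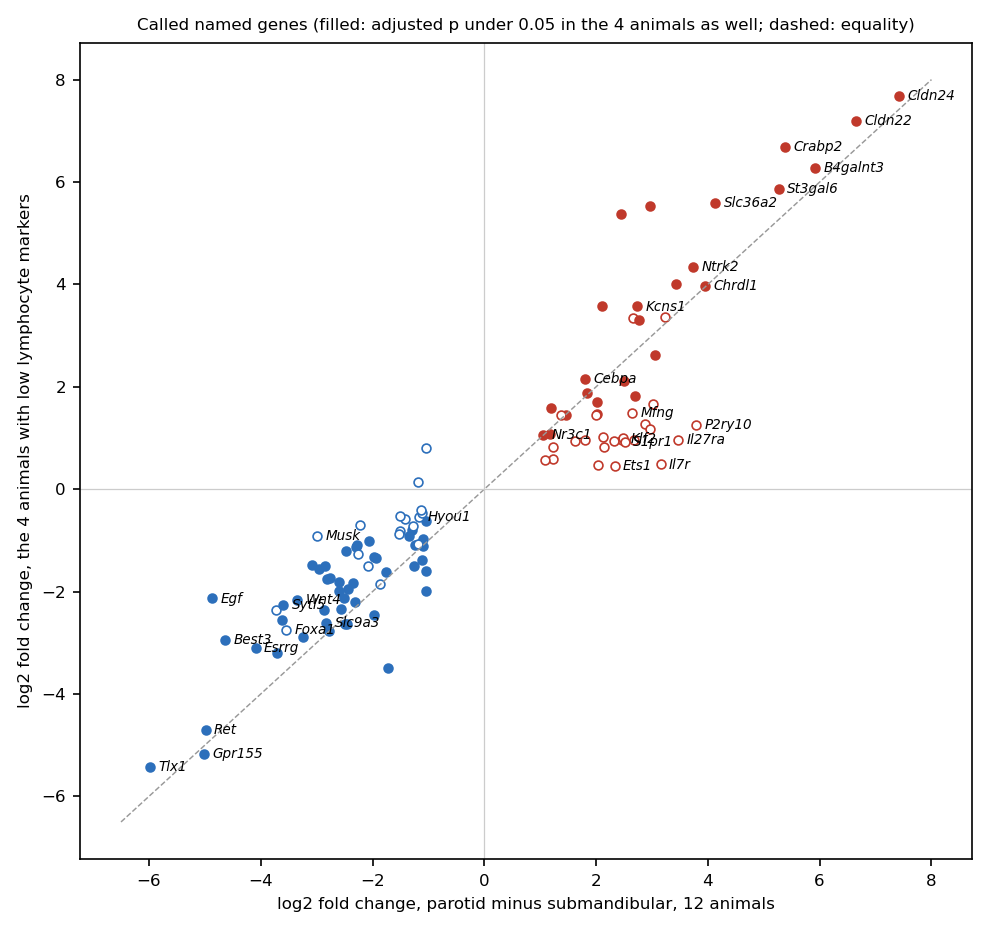
Log2 fold change of the called named genes in the 12 animals (horizontal) against that in the 4 animals with low lymphocyte markers (vertical), filled where the adjusted p in the 4 was also under 0.05, with a dashed line of equality. Cldn22 (6.65 and 7.19) and Tlx1 (-5.99 and -5.43) lie near the line, while Il7r (3.15 and 0.48) and Ets1 (2.33 and 0.45) lie near 0 on the vertical axis.

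The gland difference differed by sex for 303 genes (1.52% of genes tested), among them 19 transporters, 10 receptors, 8 transcription factors and 29 pathway genes of the lists. Leaving out CD1 male 2, CD1 male 3, C57 male 1 or C57 female 1 gave 180, 167, 184 and 191 genes, and CD1 or C57 mice alone 32 and 187. Values are for the 6 males and 6 females of a gland. Ngfr, the low-affinity receptor of the neurotrophins, lay at 170, 224 and 315 CPM in submandibular males and 2.82, 16.8 and 31.6 CPM in submandibular females, so the sexes did not overlap in that gland. Egf, epidermal growth factor, had submandibular medians of 34323 CPM in males and 800 CPM in females. Maf, a bZIP factor, changed order, at a median of 71.8 CPM in submandibular males and 6.98 CPM in females, with 18.3 and 14.8 CPM in parotid. It was therefore higher in submandibular gland in the 6 males (-2.04) and higher in parotid in the 6 females (1.27). Sgk1, a kinase that raises sodium channel activity, had submandibular medians of 207 CPM in males and 40.3 CPM in females. Car13, a carbonic anhydrase, had 68.0 and 17.2 CPM, and Slc16a3, a lactate carrier whose span overlaps that of Csnk1d, 12.9 and 1.60 CPM.

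Some genes were higher in female submandibular glands. St3gal1, a sialyltransferase of O-glycans, lay at 675, 759 and 1077 CPM in submandibular females and 21.6, 63 and 127 CPM in submandibular males, with parotid medians of 66.9 and 65.7 CPM. Its gland difference was 0.15 in males and -3.58 in females (males minus females 3.73, SE 0.45, adjusted p = 0.000933). Creb3l4, a bZIP factor of secretory cells, had submandibular medians of 22.1 CPM in females and 5.72 CPM in males (1.79, SE 0.27, adjusted p = 0.00424). Slc41a2 was lower in submandibular females than in males, with medians of 3.68 and 19.6 CPM, so its difference toward parotid was larger in females (3.35 against 0.86). The granular convoluted tubule markers move with sex in the same libraries, and their part in these results was not tested. In the fit without the 6 animals with muscle markers, 0 genes differed by sex (626 at an unadjusted p under 0.05), in the covariate fit 741, and by DESeq2 889.

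**Figure D5:**
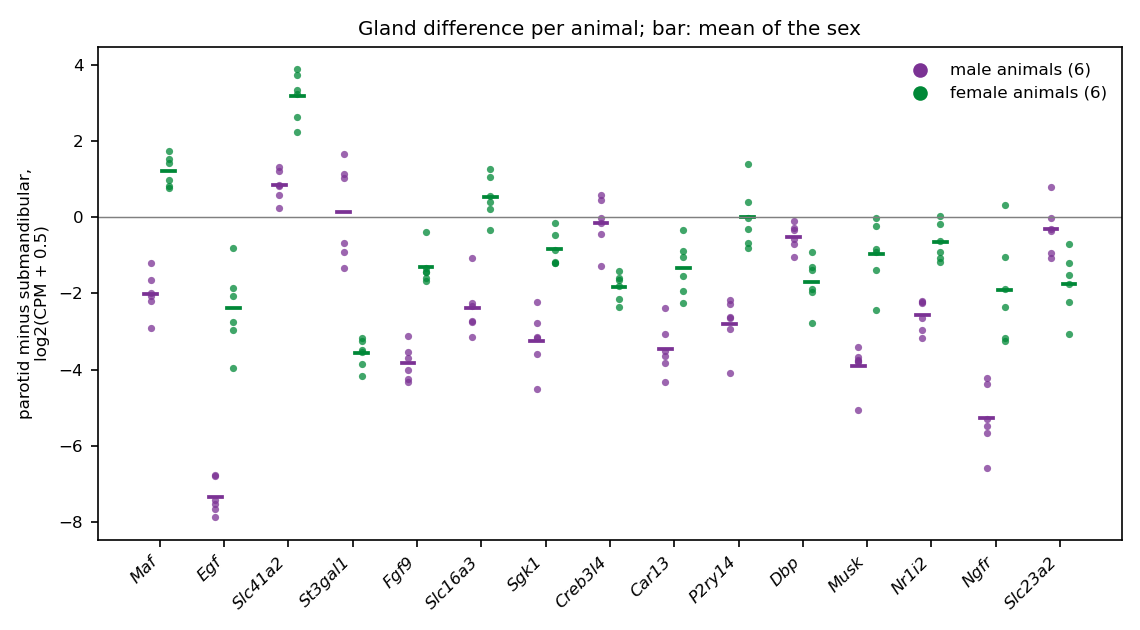
Difference of log2(CPM + 0.5) between parotid and submandibular gland in each animal, purple for males and green for females, for 15 genes whose gland difference differed by sex. Egf lies lower in males, St3gal1 lies lower in females, and Maf lies on either side of 0 by sex.

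By strain, the gland difference differed for 1 gene, Unc45b (0.00501% of genes tested), a myosin chaperone of muscle that is in none of the lists. In submandibular gland it lay between 5.11 and 17.3 CPM in the 6 CD1 libraries and between 0.658 and 1.25 CPM in the 6 C57 libraries, while parotid ran from 1.26 to 7.34 CPM in both strains together. The gland difference in CD1 minus that in C57 was -3.42 (SE 0.35, adjusted p = 0.00483). At an unadjusted p under 0.05 there were 1463 genes, and by DESeq2 127 were called. Leaving out CD1 male 2, CD1 male 3, CD1 female 1, CD1 female 2 or C57 female 1 gave 4, 2, 7, 5 and 3 genes. Dlk1, a non-canonical Notch ligand, had the smallest p of the transporters, receptors, factors and pathway genes by strain. It lay between 4.70 and 48.0 CPM in CD1 and between 0.170 and 1.90 CPM in C57 submandibular libraries, with 0.626 to 2.13 CPM in parotid (-4.83, adjusted p = 0.0687). Gpr37l1, an orphan receptor, lay between 9.44 and 18.1 CPM in C57 and 1.61 and 4.24 CPM in CD1 submandibular libraries (2.04, adjusted p = 0.142), so neither passed the threshold.

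In the sublingual gland of the same mice, scaled with the other 2 glands over 36 libraries, some of these genes followed 1 gland and some neither. Tlx1 lay at 39.6 to 50.1 CPM, with medians on this scale of 46.1 in sublingual, 48.4 in submandibular and 0.648 CPM in parotid. Cldn22 (0.881 to 5.10 CPM) was likewise near the submandibular median of 2.16 CPM. Ntrk2 had a median of 34.6 CPM, between 76.4 CPM in parotid and 6.23 CPM in submandibular gland. Slc9a3 had a sublingual median of 0.897 CPM, below 4.33 CPM in parotid and 26.9 CPM in submandibular gland, and Foxa1 one of 197 CPM, above 2.92 and 52.3 CPM. These values are given without a test.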

How the data were processed

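The authors deposited raw counts per gene for 41079 genes and 60 libraries, of which 24 were used. Per the labels' protocols, poly(A) RNA was sequenced. Per the submitters' processing notes, Trim Galore, HISAT2 and featureCounts were used with build GRCm39. Strand, multi-mapping and pair settings are not given in the sources used here. Among deposited counts of 1 to 20, even values outnumbered odd ones 1.67 to 1, so the 2 reads of a pair may be counted separately. Listed coordinates bound 1 exon.

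edgeR 4.0.16 (R 4.3.3) was run on the counts: TMM scaling, filterByExpr over the 8 groups, and a quasi-likelihood fit with a term per animal, gland, gland by sex and gland by strain (9 residual degrees of freedom, Benjamini-Hochberg over 19956 genes). Of the genes in the table, 8449 had no count in these libraries. SE is the absolute log2 fold change over the square root of F. Plotted differences use log2(CPM + 0.5). DESeq2 1.42.0 and other alternatives are given in the closing section. The fit was tested on simulated counts.

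The glands of 1 animal were paired by library name. Deviations of paired libraries correlated at -0.14 to 0.29 (above 0.1 in 4 of 12 animals). Same-group libraries differed beyond sampling noise in all 24 pairs (chi-square per degree of freedom 29.4 to 967). Each library is 1 animal's gland.

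Members and lists (48 lists and 18 marker lists) were chosen with earlier results of these data known. Named genes (130) were the 8 largest fold changes per class and direction, and 2 per pathway list and direction, among genes called, in the same direction in all 12 animals and at 5 CPM or more in the higher gland. To these were added the 4 smallest p per class by sex or strain and a set of genes always given. Some genes that this rule names are not reported here. Other genes were named after their values were seen. Promoters came from RefSeq (GRCm38.p6).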

Additional observations from a re-analysis of the deposited data

Results flagged for a closer look

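The gland difference (log2, parotid minus submandibular) differed between males and females for the genes below by the interaction term of edgeR's quasi-likelihood test, each value being males minus females over 6 animals of each sex. Among growth factors and signals, Kiss1 (the kisspeptin precursor, chosen after its values were seen) had -5.46, Egf -4.94 and Fgf9 -2.60. Among receptors, Ngfr had -3.31, Musk -3.12, P2ry14 (a UDP-sugar receptor) -2.96 and Nr1i2 (a xenobiotic-sensing nuclear receptor) -2.36. The calls of Nr1i2 (adjusted p = 0.0245) and Ngfr (adjusted p = 0.0273) were lost in 14 and 11 of 25 alternative fits. Among transporters and their regulators, Slc16a3 had -3.43, Slc41a2 -2.50, Sgk1 -2.39 and Car13 -2.17. The transcription factor Maf had -3.30. Values above 0 were found for St3gal1 (3.73), Creb3l4 (1.79), Slc23a2 (a vitamin C carrier, 1.43) and Dbp (a clock-output factor whose span overlaps that of Sphk2, 1.20). Maf changed direction between the sexes, at -2.04 in males and 1.27 in females. The signs also differed for Slc16a3 (-2.76 and 0.67) and St3gal1 (0.15 and -3.58), but the value for Slc16a3 in females alone and that for St3gal1 in males alone did not pass the threshold (adjusted p = 0.196 and 0.561). By strain, Unc45b differed, with CD1 minus C57 at -3.42, and it was chosen as the only call.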

How the results depend on the processing

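Counts of genes higher in parotid and in submandibular gland were 2804 and 1391, 303 differed by sex and 1 by strain. Leaving out 1 animal gave 2382 to 2835, 1225 to 1556, 167 to 452 and 1 to 7. Without the replicate block that pairs the glands of an animal, counts were 3027, 1373, 401 and, by strain, 15. By strain, counts were 14 with no low-count filter, 3 in males, 0 in females (1091 at an unadjusted p under 0.05), 51 with all 60 libraries and 127 by DESeq2. By sex, they were 32 in CD1, 187 in C57, 454 with all 60 libraries and 889 by DESeq2. A filter of 1 CPM in 12 libraries gave 1236 and 817, females alone 950 and 700, and C57 alone 1603 in parotid. No fold limit gave 4368 and 3405, and a 4-fold limit 1512 and 533. Without animals with lacrimal markers, 155 differed by sex and 2 by strain. Without those with lymphocyte markers, 717 and 492 were called. Without those with adipocyte markers, 1708 were higher in parotid and 987 in submandibular gland, 179 differed by sex and 0 by strain (1755 unadjusted). Without those with muscle markers, counts were 655, 701, 0 by sex (626 unadjusted) and 0 by strain (435 unadjusted). The covariate fit gave 477, 218, 741 by sex and 0 by strain (828 unadjusted). These fits had fewer animals or residual degrees of freedom. The fits without marked animals, the covariate fit and the tests on named genes outside the rule were chosen after seeing the data.

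Of the 117 named genes called, 93 kept their direction in every alternative that gave a value (26 to 28 a gene). Only 22 of the 117 kept both their direction and an adjusted p under 0.05 in all of these. Directions turned as follows, and the cause was not tested. In males: St3gal1 0.11, Meis3 -0.0118, Chrm3 0.12. In females: Slc16a3 0.68, Maf 1.27, Kcnn4 -0.25, Unc45b 0.18. In CD1: Dusp6 0.24. In C57: Meis3 -0.070, Dlk1 0.98, Unc45b 1.62. Without lymphocyte markers: Slc16a3 0.80, Maf 1.28, Slc2a4 0.14, Elk3 -0.14, Unc45b 1.27. Without adipocyte markers: Chrm3 0.15. Without muscle markers: Ano1 -0.35, Kcnn4 -0.0017. With covariates: P2ry10 -0.072, Il27ra -0.19, S1pr1 -0.41, Ets1 -0.55, Fli1 -0.32, Lyl1 -0.34, Tfcp2l1 0.33, Tgfbr2 -0.32, Erbb2 1.06, Unc13d -0.42, Stx2 -0.23, Krt7 0.49, Krt23 0.45, Pfkfb3 -0.56, Ccnd2 -0.33, Fxyd6 -0.41, Slc16a13 0.32, Elk3 -0.44, Slc12a2 1.15, Aqp5 1.08, Kcnma1 0.98, Scnn1a 1.08, Scnn1g 0.045, Chrm1 0.46, Chrm3 1.83, Adrb1 0.94, Bhlha15 1.69, Atp1b1 0.83, Aqp7 -1.65, Lrat -2.19, Esr1 -0.084, Atp6v1b1 0.14, Bsnd 0.58, Barx1 0.024, Scd1 -0.25, Acaca -0.28, Gfra4 -0.0036, Cox6a2 -0.37, Cox8b -1.85, Pck1 -1.98, Pdk4 -0.54, Car3 -0.034. Of 3016 alternative counts over the lists, 595 moved by more than 1.5 times.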

Other observations

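The following genes lie outside the lists and were chosen after their values were seen, so they are descriptions. Duox2, a hydrogen peroxide-making oxidase, lay at 0.307, 0.930 and 1.48 CPM in parotid and 20.4, 63.6 and 93.9 CPM in submandibular gland (lowest, median and highest; log2 fold change -6.05, SE 0.32). Its maturation factor Duoxa2 had medians of 0.252 and 19.2 CPM (-6.58, SE 0.29), so enzyme and partner differed together with no overlap between libraries. Nos1, the neuronal nitric oxide synthase, had medians of 1.93 and 21.7 CPM (-3.45, SE 0.41). Gal3st2b, a glycan sulfotransferase, lay at 6, 27.6 and 59.1 CPM in parotid and 0, 0.115 and 0.515 CPM in submandibular gland (7.31, SE 0.41). Fam20c, the kinase that phosphorylates secreted proteins, had medians of 31.8 and 2.91 CPM (3.54, SE 0.24), and Fam20a, its activator, 31.0 and 4.56 CPM (2.70, SE 0.25). Both were higher in parotid in all 12 animals.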
